A study of Mus musculus with 2 samples.

Results

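Expression of 9 transcription factors known for intestinal identity or absorptive differentiation was followed across the epithelial cells of the mouse colon. The factors are the homeobox proteins Cdx1 and Cdx2, the nuclear receptors Hnf4a, Hnf4g and Vdr, the Krüppel-like factors Klf4 and Klf5, the zinc-finger factor Gata6 and the ETS factor Elf3. They were chosen by name, and all 9 were among the 17809 genes of the wild-type table. Their levels were read in the 3008 of 7495 cells with an Epcam value of at least 5, Epcam being the cell-surface adhesion molecule of epithelium.

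The data are 1 single-cell RNA library of the wild-type C57BL/6 colon, in which cells of 3 female mice aged 8 to 12 weeks were pooled. Cells sorted as EpCAM+ and CD45- (epithelial) had been mixed before loading with an equal number sorted as EpCAM- and CD45- (non-epithelial), and the V3 kit was used. A further library of GFP-positive mesenchymal cells from Pdgfra-H2B-eGFP mice, in which a nuclear green fluorescent protein reports Pdgfra, entered no comparison. No source maps cells to mice, so the 3 mice count as 1 sample, no test between classes of cells is possible, and no p-value is given. The intervals printed are exact Clopper-Pearson 95% intervals of a share of cells, and they cover counting error only.

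Cdx1 and Cdx2 are the caudal-type homeobox factors that specify and maintain intestinal epithelium, and Cdx2 is the classical marker of intestinal identity. Hnf4a and Hnf4g are paralogous receptors that bind the enhancers of many genes of absorptive cells, and Vdr is the receptor for active vitamin D. Klf4 is known in the gut from differentiated cells near the lumen and from goblet cell maturation, whereas Klf5 is known from the dividing crypt. Gata6 is the colonic member of the GATA factors of the gut, and Elf3 is an ETS factor specific to epithelia.

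Every value is a UMI count that had been corrected for depth before deposition, called the corrected count here, and a level is its mean per cell of a class. Cells were placed in 10 classes by genes other than the 9 factors. Secretory cells came first, with 65 enteroendocrine cells (Chgb of at least 20), 231 Reg4-high secretory cells (Muc2 of at least 20 and Reg4 of at least 10) and 519 goblet cells (Muc2 of at least 20). Among the other cells Guca2a, the guanylin gene of differentiated colonocytes, gave 208 cells at 50 or more, 172 at 20 to 49 and 403 at 5 to 19. Cells with less Guca2a were divided into 253 Lgr5-positive cells, 273 dividing cells without Lgr5 (Mki67 of at least 1), 141 cells with a Krt36 and Fut9 sum of at least 3, and 743 remaining Guca2a-low cells.

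The markers followed these names, in part by construction, because the lists hold genes that cut the classes. Lgr5 is among the crypt base, Muc2 among the goblet, Reg4 among the Reg4-high and Chgb among the enteroendocrine markers. The sum of 8 crypt base markers had a median of 19 in Lgr5-positive cells and of 7 or less in the other 9 classes. The sum of 10 colonocyte markers had a median of 347.5 in the 380 Guca2a-high cells (20 or more) and of 4 in Lgr5-positive cells, though Guca2a itself is one of the 10. Goblet markers had a median sum of 606 in goblet and 435 in Reg4-high cells. The list meant to mark Reg4-high cells did not separate them from goblet cells (medians of 272 and 267). The division of these 2 classes was made by the cut on Reg4, and other genes also differed between them. Cells with secretory genes also lay below the limits: goblet markers summed to 100 or more in 20.3% of the Guca2a 5-19 cells, and enteroendocrine markers to 20 or more in 1.58% of Lgr5-positive and 2.56% of Guca2a-low cells. Each cut falls within a range of cells, with 53 cells at a Guca2a of 15 to 19 against 34 at 20 to 24, and 145 of the 253 Lgr5-positive cells had a single corrected count of Lgr5. The median total per cell lay between 9461 and 9957 in the 10 classes, and the median mitochondrial share rose from 9.43% in Lgr5-positive cells to 13.2% at a Guca2a of 50 or more.

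Upstream sequences are given for Cdx2 and Klf4, which varied most between classes, and for Hnf4a, which was highest in the Guca2a classes. They come from RefSeq (GRCm38.p6), which gave a promoter for 5 of the 9 factors, and cover the 250 bases before the annotated start, 5′ to 3′ on the gene's strand. Capitals mark the GC-box-like letters CCCNCCC on either strand, the kind of site Krüppel-like factors bind.
Cdx2, minus strand, chr5:147307250-147307499: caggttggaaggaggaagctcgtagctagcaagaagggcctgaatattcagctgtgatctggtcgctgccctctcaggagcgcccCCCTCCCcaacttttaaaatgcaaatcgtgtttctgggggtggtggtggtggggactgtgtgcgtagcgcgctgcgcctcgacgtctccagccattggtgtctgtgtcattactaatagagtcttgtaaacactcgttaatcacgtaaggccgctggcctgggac
Klf4, minus strand, chr4:55532476-55532725: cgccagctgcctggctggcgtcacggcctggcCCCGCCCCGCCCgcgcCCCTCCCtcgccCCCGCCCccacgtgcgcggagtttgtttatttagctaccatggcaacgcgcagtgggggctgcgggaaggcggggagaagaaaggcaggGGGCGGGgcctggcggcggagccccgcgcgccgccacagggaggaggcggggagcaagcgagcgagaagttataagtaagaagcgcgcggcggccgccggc
Hnf4a, plus strand, upstream start, chr2:163506607-163506856: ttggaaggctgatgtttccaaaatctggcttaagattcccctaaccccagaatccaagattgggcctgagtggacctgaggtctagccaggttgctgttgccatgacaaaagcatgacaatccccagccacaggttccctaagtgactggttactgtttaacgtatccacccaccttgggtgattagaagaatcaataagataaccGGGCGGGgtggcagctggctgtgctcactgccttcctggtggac
Hnf4a, plus strand, downstream start, chr2:163546905-163547154: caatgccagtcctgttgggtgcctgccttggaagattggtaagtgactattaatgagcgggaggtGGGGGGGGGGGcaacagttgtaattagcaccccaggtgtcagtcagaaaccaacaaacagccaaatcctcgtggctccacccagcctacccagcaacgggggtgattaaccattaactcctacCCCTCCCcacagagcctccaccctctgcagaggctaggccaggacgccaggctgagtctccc
In GENCODE M21 (GRCm38) Cdx2 lies at chr5:147300805-147307270 on the minus strand, Klf4 at chr4:55527143-55532466 on the minus strand and Hnf4a at chr2:163506808-163572910 on the plus strand. The Klf4 window held 5 overlapping or separate matches to CCCNCCC, the downstream Hnf4a window 6, most of them within 1 run of G, and the Cdx2 and upstream Hnf4a windows 1 each. CCCNCCC occurred in 48.1% of 32851 promoters of 300 bases, so a match is common. TTTATNG, a core of CDX sites (10.9% of promoters), and CAAAGTNCA, a core of HNF4 sites (1.41%), had no match on either strand in the 300 bases around the starts of Cdx2, Klf4, Hnf4a, Elf3 or Vdr. Over those 300 bases the Klf4 promoter was 74.3% G or C with 40 CG dinucleotides, and the Cdx2 promoter 57.3% with 18, against medians of 52.7% and 7 over all promoters.

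**Figure D1:**
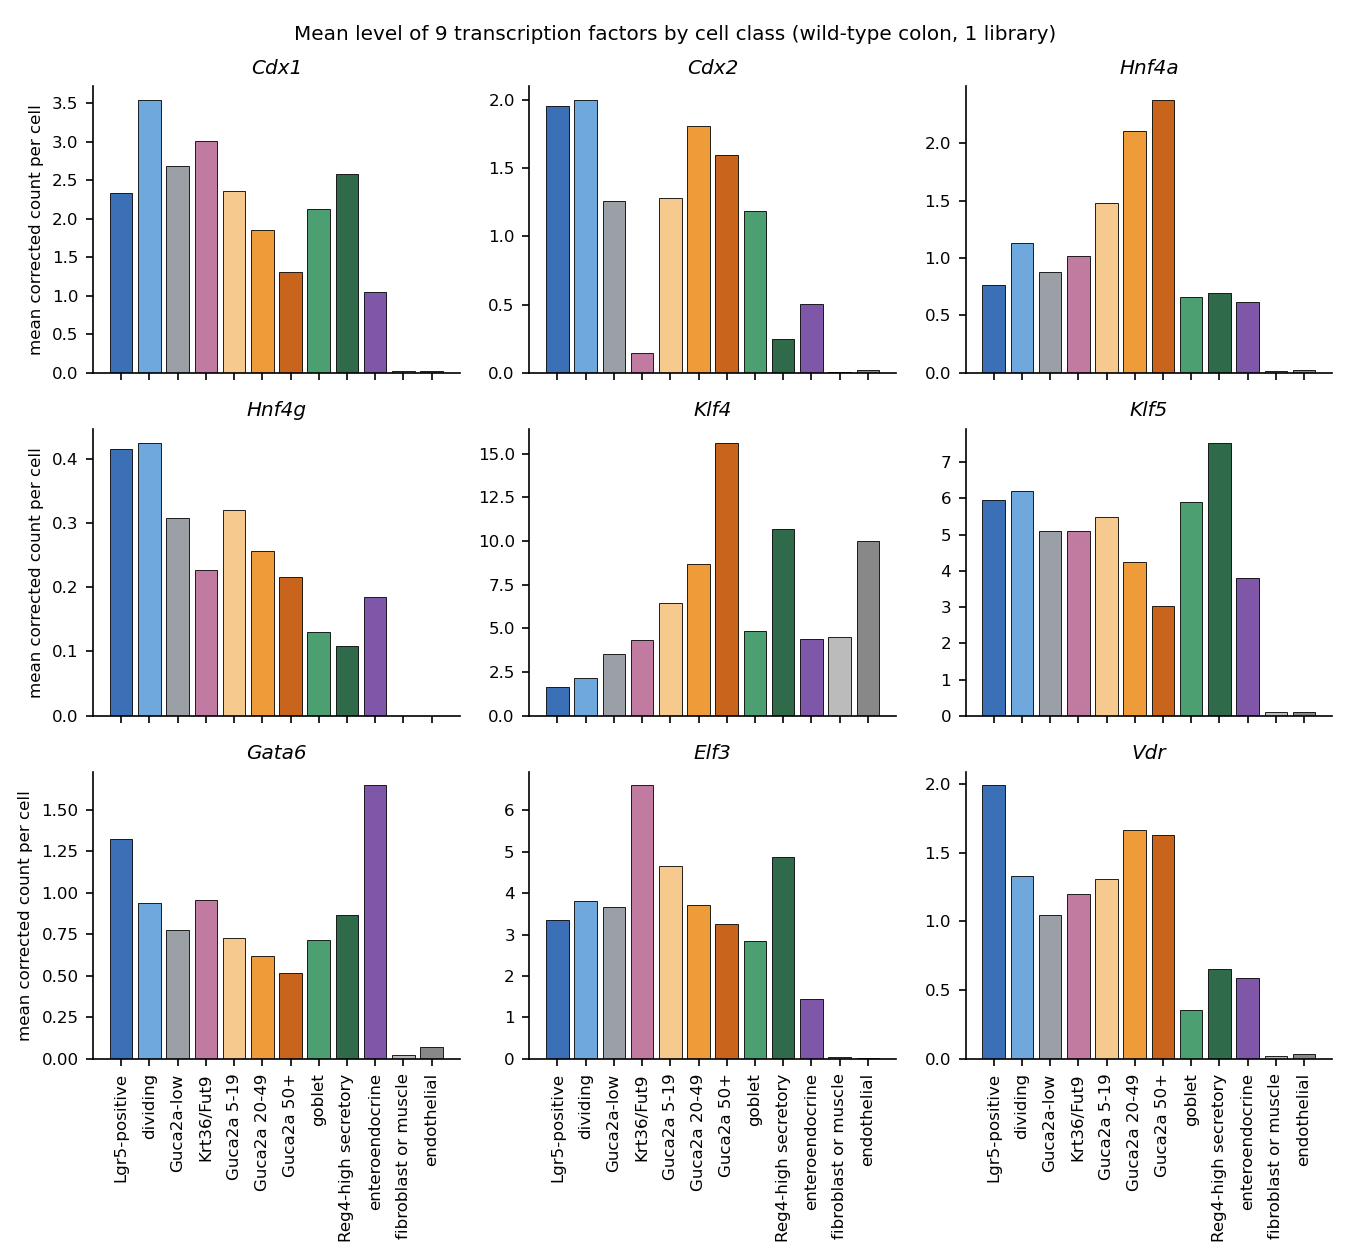
Mean corrected count per cell of each factor (vertical axes, each starting at 0 and scaled per gene) in the 10 epithelial classes and 2 classes without Epcam (horizontal axis) of the wild-type library. Hnf4a and Klf4 reach their highest epithelial bar at a Guca2a of 50 or more, Cdx2 is near 0 in the Krt36/Fut9 class, and only Klf4 has tall bars in fibroblasts or muscle and endothelium.

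Cdx1 was the more evenly spread of the homeobox pair. Its mean level was highest in dividing cells (3.55), followed by Krt36/Fut9 cells (3.01), Guca2a-low cells (2.69) and Reg4-high cells (2.58). It was 2.33 in Lgr5-positive cells, and along the Guca2a classes it was 2.36 at 5 to 19, 1.86 at 20 to 49 and 1.31 at 50 or more. Enteroendocrine cells had the lowest level, 1.05, with a value above 0 in 56.9% of cells (44.0% to 69.2%), whereas the other 9 classes had 76.0% to 97.2%. Of the 9 steps between neighbours in this order of means, 7 had overlapping intervals for the share of cells.

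Cdx2 varied much more, over 13.4-fold between its highest and lowest class. Its mean level was 2.00 in dividing and 1.95 in Lgr5-positive cells, 1.81 and 1.60 in the upper Guca2a classes, 1.28 at a Guca2a of 5 to 19 and 1.26 in Guca2a-low cells. Goblet cells had 1.19, enteroendocrine cells 0.508, Reg4-high cells 0.251 and Krt36/Fut9 cells 0.149. The share of cells above 0 ran from 75.9% (70.1% to 81.0%) in Lgr5-positive cells down to 18.2% (13.4% to 23.8%) in Reg4-high and 12.1% (7.18% to 18.6%) in Krt36/Fut9 cells. Cells without Epcam that express fibroblast or muscle genes had 0.955% (0.592% to 1.46%). Their median was 8686.5 corrected counts, against 9510 in Krt36/Fut9 cells. Even the lowest epithelial share was above that of these cells. They were chosen for an Epcam of 0, and the 2021 cells with an Epcam of 1 to 4 were in no class. The share in non-epithelial cells at large was therefore not measured.

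Cdx2 was also compared by the sum of Krt36 and Fut9 within 5 other classes, and its mean level was lower at a sum of 3 or more in 4 of them. Krt36 encodes a keratin and Fut9 a fucosyltransferase. A sum of 3 or more does not require both genes, and the gene with the higher mean differed between classes. Mean levels of Krt36 and Fut9 were 0.134 and 0.846 in Lgr5-positive, 0.901 and 0.282 in dividing, and 8.20 and 1.21 in Krt36/Fut9 cells. Among the 253 Lgr5-positive cells, the 29 with a Krt36 and Fut9 sum of 3 or more had a mean Cdx2 level of 0.690 and 34.5% of cells above 0 (17.9% to 54.3%), against 2.12 and 81.3% (75.5% to 86.1%) in the 224 others. Among dividing cells the values were 0.238 and 23.8% (8.22% to 47.2%) in 21 cells against 2.15 and 72.6% (66.7% to 78.0%) in 252. At a Guca2a of 5 to 19 they were 0.406 and 25% (11.5% to 43.4%) in 32 cells against 1.36 and 48.0% (42.8% to 53.2%) in 371. The intervals did not overlap in Lgr5-positive and dividing cells, and overlapped narrowly in the Guca2a 5-19 cells. Few secretory cells reached that sum. In goblet cells the values were 0.625 and 37.5% (8.52% to 75.5%) in 8 cells against 1.20 and 60.7% (56.3% to 64.9%) in 511. In Reg4-high cells the order was the other way, 0.357 and 28.6% (8.39% to 58.1%) in 14 cells against 0.244 and 17.5% (12.7% to 23.2%) in 217, and the intervals overlapped in both secretory classes.

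Cdx1 did not share this split. In Lgr5-positive cells its mean level was 2.79 at a Krt36 and Fut9 sum of 3 or more and 2.27 below 3. The values were 3.62 and 3.54 in dividing cells, and 2.19 and 2.38 in Guca2a 5-19 cells. Within Krt36/Fut9 cells 85.1% had Cdx1 above 0 and Cdx2 at 0, and 12.1% had both, where independent detection of the 2 genes would give 11.7%. The same combination, Cdx1 without Cdx2, was found in 74.0% of Reg4-high cells, 34.5% of goblet cells, 20.9% of Lgr5-positive cells and 40.0% of all epithelial cells. Elf3 was at 6.86 at a sum of 3 or more and 3.55 below 3 in dividing cells, and at 3.69 and 3.30 in Lgr5-positive cells, within 2-fold in both.

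A second split in Cdx2 lay among differentiated colonocytes. Of the 380 Guca2a-high cells, 279 had more Cyp2c55 (a cytochrome P450) than Saa1 (serum amyloid A), and 88 had more Saa1. The former had a mean Cdx2 level of 2.04 with 79.6% of cells above 0 (74.4% to 84.1%), the latter 0.693 with 43.2% (32.7% to 54.2%). The split was wider in the cells at a Guca2a of 5 to 19, a contrast added after the values had been seen. Of the 403 cells of that class, those with equal values of Cyp2c55 and Saa1 entered neither subset. The median of each gene was 0 in the class, and any difference placed a cell. There 117 cells with more Cyp2c55 had 2.68 and 81.2% (72.9% to 87.8%), and 117 with more Saa1 had 0.376 and 19.7% (12.9% to 28.0%). Leaving out 4 and 6 cells with goblet marker sums of 100 or more changed these means to 2.76 and 0.378. Cdx1 had 2.67 in the former and 1.48 in the latter cells, and Klf4 had 4.85 and 9.18, both within 2-fold. Gata6 was past 2-fold, at 0.769 with 51.3% of cells above 0 (41.9% to 60.6%) in the former and 0.359 with 26.5% (18.8% to 35.5%) in the latter, a log2 ratio of -1.08. The other 5 factors were within 2-fold.

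**Figure D2:**
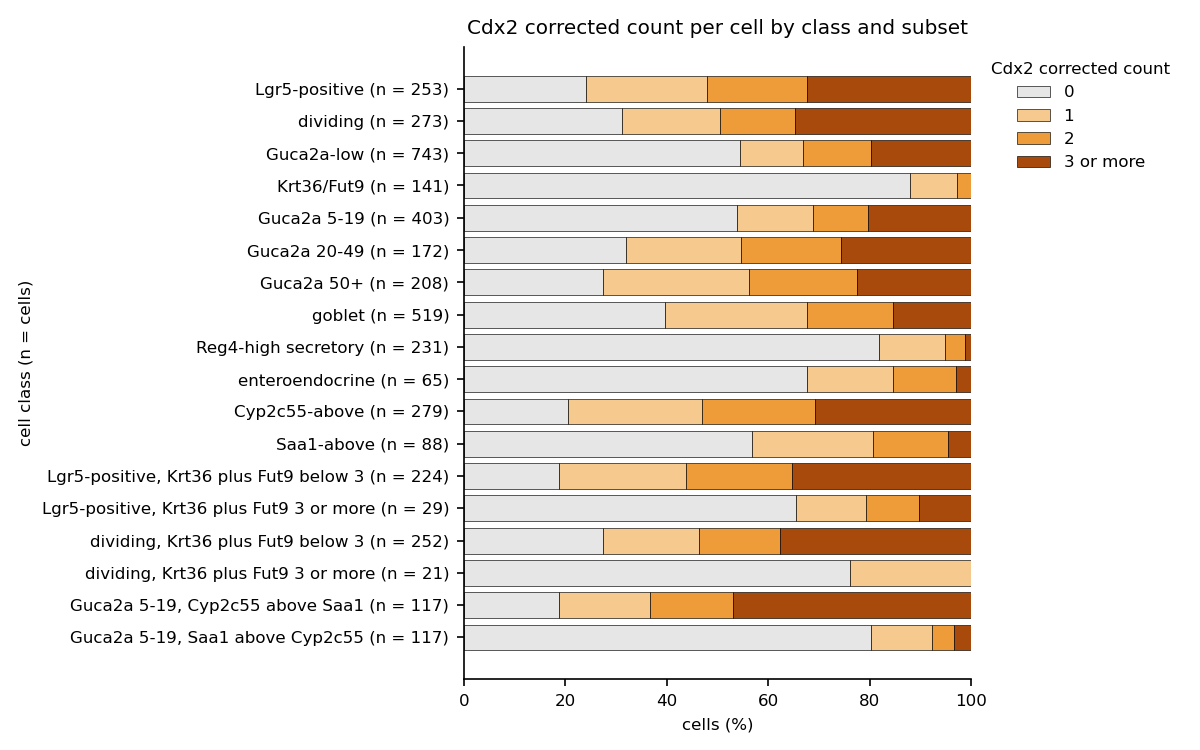
Share of cells in percent (horizontal axis) at a Cdx2 corrected count of 0, 1, 2 and 3 or more (colours) in each class and in subsets of 4 classes (vertical axis, with the number of cells). The bars for Krt36/Fut9 and Reg4-high cells are mostly at 0 (87.9% and 81.8%), as are the Saa1-above cells at a Guca2a of 5 to 19 (80.3%).

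Hnf4a rose with Guca2a. Its mean level was 0.767 in Lgr5-positive, 1.14 in dividing, 0.875 in Guca2a-low and 1.02 in Krt36/Fut9 cells, then 1.48, 2.11 and 2.38 in the 3 Guca2a classes. The share of cells above 0 went from 54.9% (48.6% to 61.2%) in Lgr5-positive cells to 90.9% (86.1% to 94.4%) at a Guca2a of 50 or more. In secretory cells it stayed at 0.659 (goblet), 0.697 (Reg4-high) and 0.615 (enteroendocrine), with shares of 41.5% to 49.4% whose intervals overlapped each other.

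Hnf4g, on chr3:3508030-3658052, ran the other way at much lower counts. Dividing and Lgr5-positive cells had the highest mean levels, 0.425 and 0.415, and the Guca2a classes had 0.320, 0.256 and 0.216. Goblet cells had 0.131 and Reg4-high cells 0.108. The share of cells above 0 was 36.8% (30.8% to 43.0%) in Lgr5-positive cells, 19.2% (14.1% to 25.3%) at a Guca2a of 50 or more and 12.1% (9.46% to 15.3%) in goblet cells. All 9 steps between neighbouring classes had overlapping intervals, so the order of adjacent classes is not resolved. No cell of 2200 fibroblast or muscle cells had a value above 0. A count of 0 allows up to 0.136% of cells (3 cells) with a value above 0, and the exact interval reaches 0.168%, both limits on cells with a count and not on cells that express the gene.

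The receptor pair overlapped in part. Both Hnf4a and Hnf4g were above 0 in 27.1% of dividing cells and in 17.8% of cells at a Guca2a of 50 or more. Independent detection of the 2 genes would give 25.2% and 17.5%. At a Guca2a of 50 or more 73.1% had Hnf4a alone and 1.44% Hnf4g alone. In Lgr5-positive cells 35.6% had Hnf4a alone and 17.4% Hnf4g alone.

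Vdr had lower mean levels in the secretory classes than in the others. Its mean level was highest in Lgr5-positive cells (1.99) and was 1.66 and 1.62 in the upper Guca2a classes. It lay between 1.05 and 1.33 in the remaining classes outside the secretory ones. Secretory cells had less, 0.355 in goblet, 0.654 in Reg4-high and 0.585 in enteroendocrine cells. Values above 0 were found in 83.0% of Lgr5-positive cells (77.8% to 87.4%), 79.8% of cells at a Guca2a of 50 or more (73.7% to 85.0%), 25% of goblet cells (21.4% to 29%) and 43.1% of enteroendocrine cells (30.8% to 56.0%), whose interval overlapped that of Guca2a-low cells (54.9%, 51.3% to 58.5%). The gene lies on the minus strand at chr15:97854425-97910630.

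**Figure D3:**
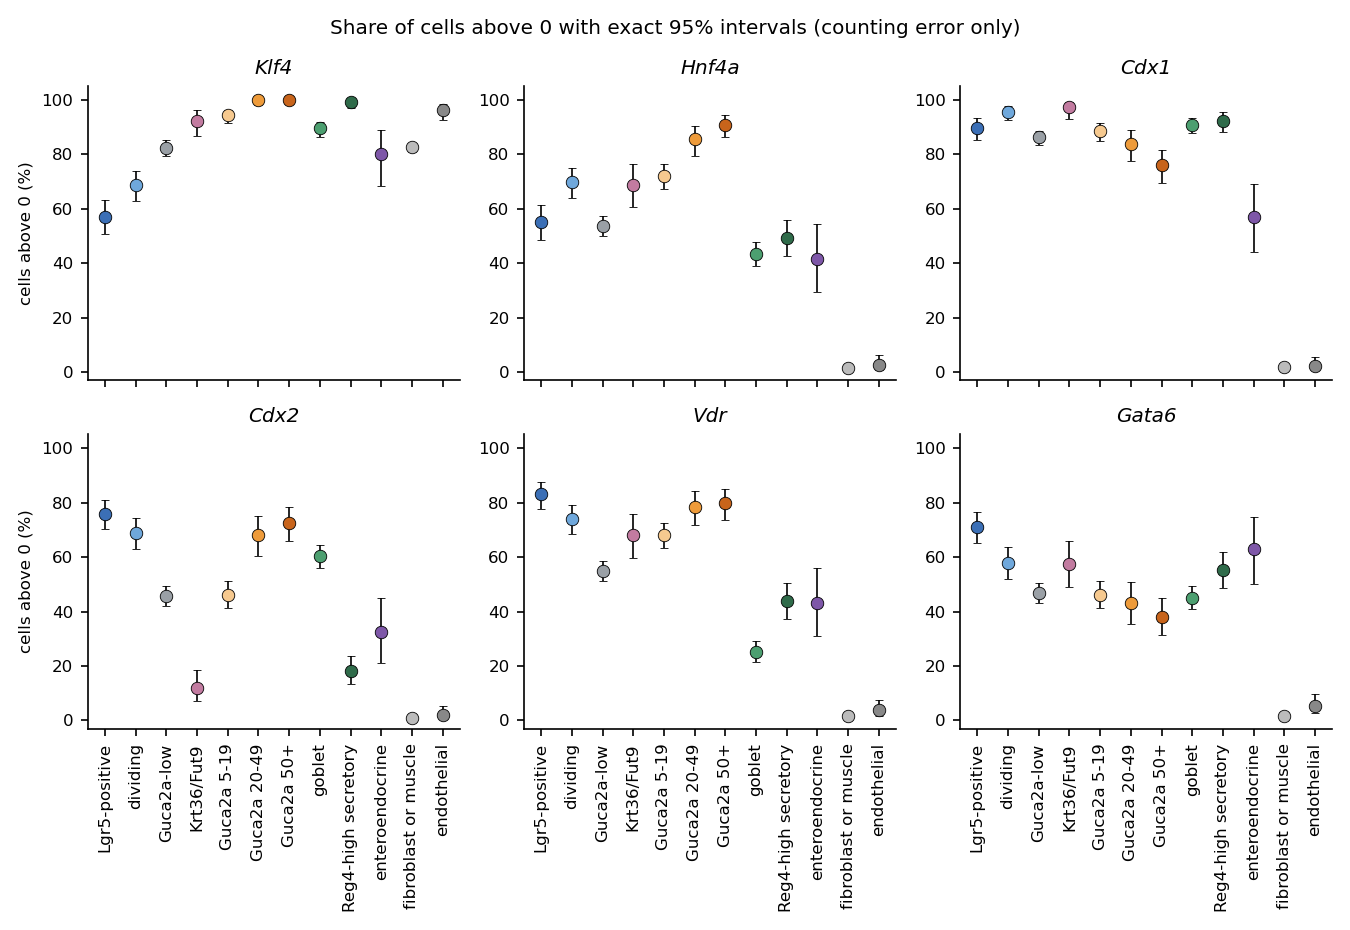
Share of cells above 0 in percent (vertical axes) for 6 factors in the 10 epithelial classes and the 2 classes without Epcam (horizontal axis). Points are shares and bars exact 95% intervals for counting error, and the goblet point for Vdr (25%) and the Krt36/Fut9 point for Cdx2 (12.1%) stand far below those of Lgr5-positive cells.

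Klf4 had the steepest course along Guca2a. The mean level was 1.62 in Lgr5-positive and 2.17 in dividing cells, 3.56 in Guca2a-low and 4.35 in Krt36/Fut9 cells, and 6.48, 8.70 and 15.6 in the Guca2a classes. Single cells spread widely within a class, with a 10th percentile, median and 90th percentile of 0, 1 and 4 in Lgr5-positive cells and of 6, 15 and 27 at a Guca2a of 50 or more. Reg4-high cells had 10.7, above goblet cells (4.86) and enteroendocrine cells (4.40). Values above 0 were found in 56.9% of Lgr5-positive cells (50.6% to 63.1%), in all 380 Guca2a-high cells and in 99.1% of Reg4-high cells (96.9% to 99.9%).

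Klf4 was not restricted to epithelium. The 2200 fibroblast or muscle cells had a mean level of 4.49 with 82.5% of cells above 0 (80.8% to 84%), and the 187 endothelial cells 10.0 with 96.3% (92.4% to 98.5%). Lgr5-positive and dividing cells therefore had lower mean Klf4 levels than these fibroblast or muscle and endothelial cells. Per the study's methods, epithelial and mesenchymal fractions were dissociated by separate protocols. Cell type and isolation cannot be told apart in this contrast. Col1a1, Col3a1 and Pecam1 summed to 3 or more in 490 epithelial cells (16.3%), and without them the log2 ratio of Guca2a-high over Lgr5-positive means was 3.02 in place of 2.94.

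Klf5 was abundant and fairly even, from 7.54 in Reg4-high cells over 6.2 in dividing, 5.96 in Lgr5-positive and 5.90 in goblet cells to 3.04 at a Guca2a of 50 or more. At least 92.8% of cells of every class but the enteroendocrine one (78.5%, 66.5% to 87.7%) had a value above 0. Along the Guca2a classes its mean level was 5.49, 4.24 and 3.04, in the opposite order to Klf4. Klf4 was at 0 and Klf5 above it in 43.1% of Lgr5-positive cells, 31.5% of dividing cells and 5.71% of cells at a Guca2a of 5 to 19. Both were above 0 in 55.7% of Lgr5-positive cells, where independent detection would give 56.2%. The Klf5 gene lies at chr14:99298691-99315036 on the plus strand.

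Gata6 was highest in enteroendocrine and Lgr5-positive cells. Their mean levels were 1.65 and 1.32, followed by Krt36/Fut9 (0.957), dividing (0.938) and Reg4-high cells (0.866), and the Guca2a classes had 0.727, 0.616 and 0.514. Values above 0 were found in 71.1% of Lgr5-positive cells (65.1% to 76.6%) and 38.0% at a Guca2a of 50 or more (31.4% to 45.0%). Neighbouring classes overlapped at all 9 steps. Its relatives Gata4 and Gata5, known from other parts of the gut, had mean levels of at most 0.034 in any epithelial class.

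Elf3, at chr1:135253575-135258568 on the minus strand, stood out in Krt36/Fut9 cells. Their mean level was 6.60, with a median of 6 and a 90th percentile of 11, against 4.87 in Reg4-high cells, 4.67 at a Guca2a of 5 to 19, and 2.85 to 3.81 in the other 6 classes besides enteroendocrine cells. Enteroendocrine cells had the lowest level, 1.43, and the lowest share above 0, 60.0% (47.1% to 72.0%). Among Guca2a-high cells the Saa1-above ones had 4.34 and the Cyp2c55-above ones 3.16.

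Ratios of class means set these levels beside all genes. A gene counted as higher or lower at 2-fold or more, with 0.01 added to each mean and a mean of at least 0.05 over the classes compared. In Guca2a-high over Lgr5-positive cells, Klf4 was higher by 2.94 on the log2 scale (7.65-fold) and Hnf4a by 1.55 (2.92-fold), and the log2 ratio of Gata6 was -1.23 (2.34-fold lower). This makes 2 of 9 factors higher, where 13.3% of 10676 genes were higher, and 1 lower, where 37.3% were lower. The median log2 ratio was -0.27 over the 9 factors and -0.61 over all genes. Elf3 (0.05), Cdx2 (-0.21), Vdr (-0.27), Cdx1 (-0.58), Klf5 (-0.73) and Hnf4g (-0.80) lay within 2-fold. Without cells of 15% or more mitochondrial counts the ratios were 2.96 for Klf4, 1.48 for Hnf4a and -1.23 for Gata6.

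In goblet over Guca2a-high cells the log2 ratios of Vdr (-2.18), Hnf4a (-1.76) and Klf4 (-1.36) were lower, corresponding to 4.53-fold, 3.39-fold and 2.57-fold. These are 3 of 9 factors, against 13.7% of 10182 genes lower, and none of the 9 was higher, against 24.1% of genes. The nearest to a gain were Klf5 (0.72) and Cdx1 (0.45).

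In Reg4-high over Lgr5-positive cells Klf4 was higher by 2.71 (6.53-fold), and Cdx2 (-2.91, 7.52-fold), Hnf4g (-1.85) and Vdr (-1.59) were lower. Of all 10854 genes 9.68% were higher and 20.5% lower, beside 1 and 3 of the 9 factors. Against goblet cells, a comparison added after the values had been seen, Reg4-high cells had a Cdx2 ratio of -2.20 and a Klf4 ratio of 1.13, with 5.32% of 10341 genes lower and 4.14% higher. The Klf4 ratio fell to 0.98 with a Reg4 minimum of 20.

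In enteroendocrine over Guca2a-high cells 5 of the 9 factors were lower, where 13.1% of 11096 genes were, namely Hnf4a (-1.86), Cdx2 (-1.72), Klf4 (-1.50), Vdr (-1.47) and Elf3 (-1.27). Gata6 was higher by 1.54 (2.90-fold), as were 45.1% of all genes, and the median of all genes stood at 0.81. Hnf4g was at -0.33 but at -1.18 when each cell was thinned to 6000 corrected counts, with only 65 enteroendocrine cells behind it.

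Saa1-above over Cyp2c55-above colonocytes differed at 2-fold in Cdx2 alone of the 9 factors (-1.54, 2.91-fold lower), with 7.45% of 9222 genes lower and 6.57% higher. Gata6 (-0.72) and Elf3 (0.46) followed within 2-fold. In Krt36/Fut9 over Lgr5-positive cells, also added after the values had been seen, Cdx2 was lower (-3.63, 12.3-fold) and Klf4 higher (1.42), with 19.3% of 10711 genes lower and 6.89% higher, and Elf3 lay just under 2-fold (0.98). The comparisons share classes, so their ratios are not independent of each other.

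**Figure D4:**
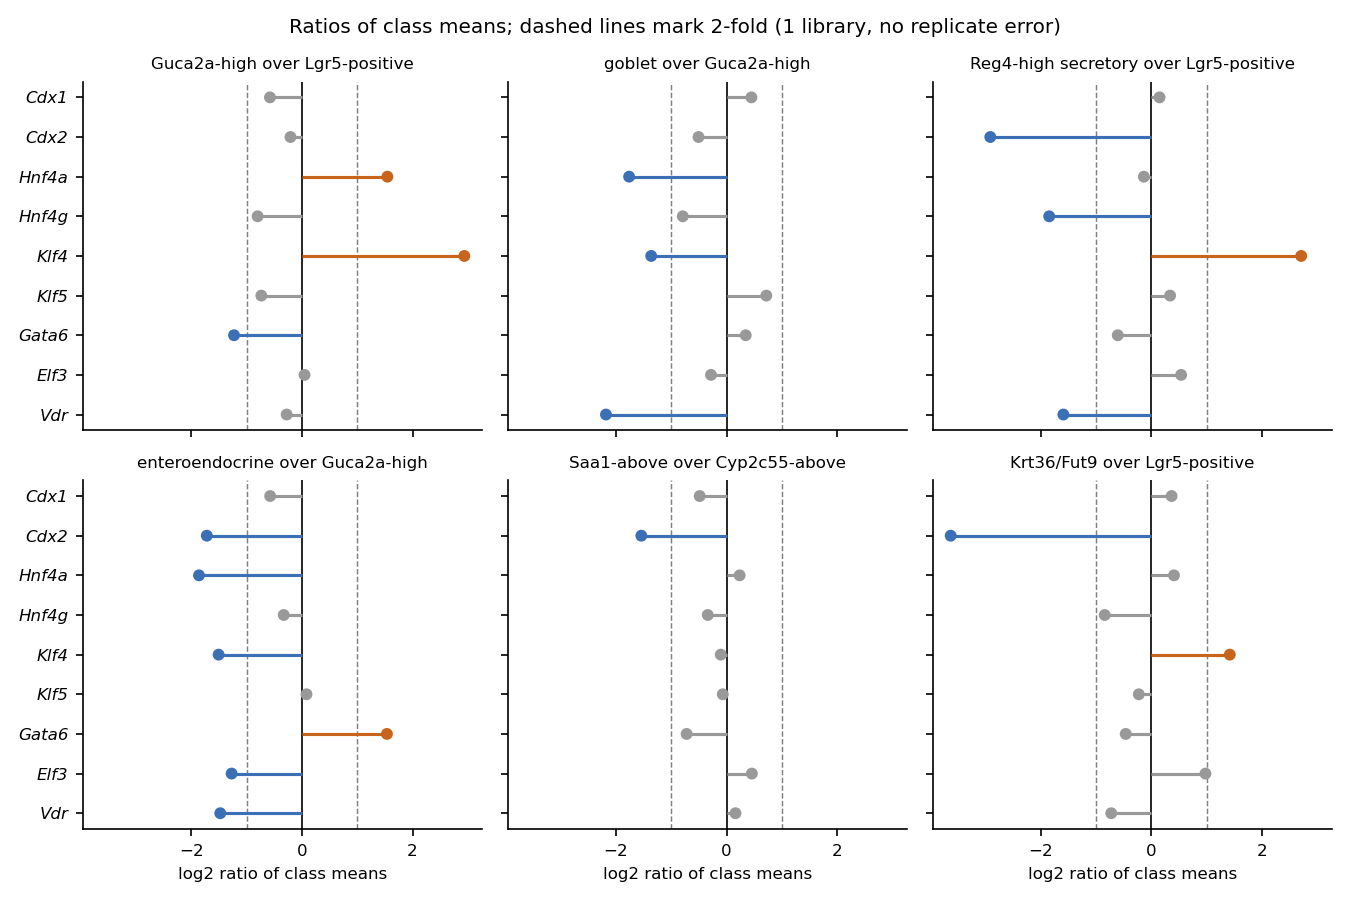
Log2 ratio of class means (horizontal axes) of each factor (vertical axes) in 6 of the 7 comparisons, with dashed lines at 2-fold and colours for 2-fold or more higher (orange) or lower (blue). Cdx2 is 2-fold or more lower in 4 of the panels, and Klf4 is higher in all 3 panels over Lgr5-positive cells.

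Lists of other genes were counted in Guca2a-high over Lgr5-positive cells, where 13.3% of all genes were higher and 37.3% lower. The lists were chosen with earlier results of these data known. Whether the factors act on these genes was not tested. Of 18 brush border genes tested, 16 were at least 2-fold higher in Guca2a-high than in Lgr5-positive cells and none lower (median log2 ratio 2.52), among them the adhesion molecule Ceacam20 (mean of 2.37 against 0.0474), the metalloprotease subunit Mep1b (2.04 against 0.0553) and the intermicrovillar cadherin Cdhr5 (7.72 against 0.364). All 18 were lower in goblet than in Guca2a-high cells, where 13.7% of all genes were lower. Of 19 colonocyte transport and differentiation genes 15 were higher in Guca2a-high cells and 1 lower (median 3.01), with carbonic anhydrase Car1 at 131.3 against 0.340 and the chloride exchanger Slc26a3 at 5.34 against 0.0632.

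The vitamin D response and calcium list had 6 genes tested, 4 of them higher in Guca2a-high cells, beside 13.3% of all genes. S100g, the calcium-binding calbindin known as a target of Vdr, had means of 3.57 and 0.455, and within the Guca2a classes it was 2.43, 6.30 and 1.31. Cldn2, which encodes a pore-forming claudin, was the 1 lower gene (0.0684 against 1.70). Slc30a10 and Slc8a1, transporters of manganese and calcium, passed 2-fold at means of 0.108 and 0.137. All 10 dividing-cell genes were lower, at a median of -4.09, beside 37.3% of all genes.

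Of 39 other transcription factors tested, 9 were higher and 12 lower in Guca2a-high cells, with a median of 0.04. These are 23.1% and 30.8% of the list, beside 13.3% and 37.3% of all genes, whose median was -0.61. The largest ratios were those of Ascl2 (0.0132 against 1.09), the Wnt-responsive factor of crypt base cells, Hopx (0.0842 against 3.94) and the forkhead factors Foxa2 (0.0237 against 0.403) and Foxa3 (0.0474 against 0.656), all lower. Foxa3 was at 2.47 in goblet and 2.60 in Reg4-high cells. Of 10 further Krüppel-like factors 1 was higher and 4 lower, which is 10% and 40% beside the same 13.3% and 37.3% (median -0.93), with Klf12, Klf7, Klf10 and Klf13 at log2 ratios of -2.30, -2.29, -1.37 and -1.15.

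Likeness over the 10 classes was measured as the Pearson correlation of log2 class means among 5289 genes. It is a description over 10 points that share 1 library. For Cdx2 the most alike gene was Isx (r = 0.98), another intestinal homeobox gene, with mean levels of 0.419 in Lgr5-positive, 0.593 in Guca2a 20-49, 0.0303 in Reg4-high and 0.00709 in Krt36/Fut9 cells. Isx was also lower in Saa1-above than in Cyp2c55-above colonocytes (0.148 against 0.649), a split the correlation had not used. The membrane mucin Muc3a (0.93) and the lectin Reg3g (0.92) came next, and Reg3g was at 0.0114 in Saa1-above and 1.75 in Cyp2c55-above cells.

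For Hnf4a the most alike genes were the mitochondrial carrier Slc25a24 (0.99), the claudin Cldn7 (0.99) and the kinase Stk17b (0.98). Stk17b had mean levels of 0.435 in Lgr5-positive cells, 2.56 at a Guca2a of 50 or more and 0.216 in goblet cells. For Hnf4g they were the mitochondrial ribosomal genes Mrps31 and Mrpl4 (0.98 and 0.97) and Otc (0.97), the urea cycle enzyme ornithine transcarbamylase, which went from 1.28 in dividing cells to 0.0865 at a Guca2a of 50 or more and 0.0260 in Reg4-high cells. For Klf4 they were the chaperone Dnajb9 (0.97), the kinase Camk2d (0.94) and the deiodinase Dio1 (0.94), and Dnajb9 was also high in endothelium (3.49).

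For Elf3 the list held Gm5485 (0.97), Ovol2 (0.95), an epithelial zinc-finger factor with 0.738 in Krt36/Fut9 and 0.265 in Lgr5-positive cells, and Frat2 (0.95). Klf5 was most like Lrig3 (0.95), Mcoln2 (0.94) and Rbm38 (0.94), Vdr like Plekhf2 (0.96), Efna1 (0.96) and Ptges2 (0.94), Gata6 like Med1, Thoc2 and Trrap (0.98 each), and Cdx1 like Polr1d (0.96), Atp5g2 (0.95) and Mcee (0.95). Among the factors themselves the highest correlations were those of Cdx1 with Klf5 (0.77), Hnf4g with Vdr (0.77) and Cdx1 with Elf3 (0.76), and the lowest that of Hnf4a with Gata6 (-0.73). Cdx1 with Cdx2 gave -0.08 and Hnf4a with Hnf4g 0.32, so neither pair of relatives followed 1 course over the classes.

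In the classes with an Epcam of 0 the factors other than Klf4 were near 0. In the 2200 fibroblast or muscle cells the share above 0 was 9.14% (7.96% to 10.4%) for Klf5, 4.50% for Elf3, 1.86% for Cdx1, 1.73% for Gata6, 1.59% for Vdr and 1.5% for Hnf4a. Endothelial cells had 8.56% for Klf5 (4.97% to 13.5%) and 5.35% for Gata6 (2.59% to 9.61%). The lowest share of any of these 6 genes in an epithelial class was 25% (Vdr in goblet cells). Cdx2 and Hnf4g had lower ones, 12.1% in Krt36/Fut9 and 10.4% in Reg4-high cells. Their shares in fibroblast or muscle cells were 0.955% and 0%.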

How the data were processed

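The series holds 2 single-cell RNA libraries of mouse colon, each made from 3 pooled mice with 16000 cells loaded. Per the labels' processing notes and the study's methods, the authors aligned reads to mm10 with Cell Ranger and filtered and normalized cells with SCTransform in Seurat 3.1 under R 3.6.2. The score values as deposited are whole numbers, read here as UMI counts that the authors corrected to a common depth. A second deposited table per library gives the natural log of 1 plus each of these whole numbers, as the values themselves show. Totals per cell were 6120 to 16389 in 7495 wild-type cells and 2314 to 4432 in 4409 reporter cells, and 1 cell barcode occurred in both libraries. The depth sequenced cannot be recovered from these values, and a value above 0 need not be a molecule of that cell.

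The members and all gene lists were chosen with earlier results of these data known. Named genes were the 9 factors, the up to 4 genes of each list with the largest absolute log2 ratio of Guca2a-high over Lgr5-positive means, and the 3 most alike genes of each factor among genes with a mean of at least 0.5 in 1 class. Further list members (Gata4, Gata5) and the split of Guca2a 5-19 cells were named after values were seen. The plan was to use the mean corrected count, with class sums scaled to the class total only if the values were raw. They were not read as raw, so the plan was kept. The calculation of ratios was tested on simulated data. Scrublet marked 7 of 7495 cells (0.0934%), too few to have worked, so doublets were kept. Versions were Python 3.11.15, numpy 2.4.6, scipy 1.17.1, pandas 2.3.3, scanpy 1.11.5 and matplotlib 3.10.9. Alternatives changed the cuts, the pseudocount, the minimum level, the scaling, thinned each cell to 6000 corrected counts, or left out cells. The comparisons of Krt36/Fut9 over Lgr5-positive and Reg4-high over goblet cells, and leaving out cells with secretory genes below the Chgb and Muc2 limits, were added after seeing the data.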

Additional observations from a re-analysis of the deposited data

Results flagged for a closer look

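The reporter library entered no comparison, and 8 of the 9 factors were in its table. All 8 had values above 0 in more of its 4409 GFP-positive mesenchymal cells than the 0.068% that a count of 0 would allow, a limit that any gene seen in 4 or more cells passes. Klf4 was found in 57.8% of these cells (56.3% to 59.3%), with a mean corrected count of 1.63. The other 7 were rare, at 1.66% for Klf5, 0.748% for Cdx1, 0.726% for Elf3, 0.635% for Gata6, 0.476% for Vdr, and 0.363% each for Cdx2 and Hnf4a. The 7 epithelial marker genes Epcam, Krt8, Krt18, Krt19, Cdh1, Cldn7 and Cldn3, which mark epithelium, were above 0 in 0.658% to 1.88% of the same cells. The 7 rare factors lay within or below that range. Whether their values are background or expression in a few cells was not tested. The libraries were corrected to different depths and came from different kits, so these shares cannot be set against those of the wild-type cells.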

How the results depend on the processing

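No paired analysis was possible because there is 1 library per group and no test. The 9 factors gave 17 ratios past 2-fold over the 5 planned comparisons, and 61 of 90 class means of at least 1. Among all genes, 5405 of 10676, 3845 of 10182, 3273 of 10854, 6454 of 11096 and 1293 of 9222 were past 2-fold in these comparisons. The count of 17 is therefore not read as particular to the factors. Of 1134 alternative values for 63 ratios of the factors, 1132 kept within 1.5-fold (for differences of deposited log values, the sign), and 2 moved. A changed cut leaves comparisons of classes it does not touch as they were. These counts, and those of the shares of cells, therefore include values that could not move. No ratio past 2-fold changed sign, while 7 ratios within 2-fold, at most 0.34 in size, changed sign in 9 of the values. The 2 that moved were Hnf4g in enteroendocrine over Guca2a-high cells (-1.18 thinned, -0.33 otherwise) and Klf5 in the same comparison (a difference of -0.13 in log values, against a log2 ratio of 0.08). Hnf4g in Krt36/Fut9 over Lgr5-positive cells passed 2-fold with an Lgr5 minimum of 2 (-1.01). Of 1431 alternative shares of cells, 1317 lay within the interval of the value reported. The number of genes past 2-fold depended on the minimum level and the pseudocount. At a minimum of 0.2 it was 3019 in place of 5405 (Guca2a-high over Lgr5-positive), 2204 in place of 3845 (goblet over Guca2a-high), 1947 in place of 3273 (Reg4-high over Lgr5-positive), 3805 in place of 6454 (enteroendocrine over Guca2a-high), 487 in place of 1293 (Saa1-above over Cyp2c55-above), 1438 in place of 2809 (Krt36/Fut9 over Lgr5-positive) and 478 in place of 978 (Reg4-high over goblet). With no minimum it was 3180, 4432 and 1679 in the last 3 of these. With a pseudocount of 0.1, added after the data were seen for these counts, it was 3434, 2293, 1783, 4525, 454, 1307 and 397 in the order given, all but the fourth over 1.5 times fewer. The share of higher genes among those past 2-fold went from 26.3% to 37.3% in Guca2a-high over Lgr5-positive cells at 0.2, and from 43.8% to 28.4% in Reg4-high over goblet cells without cells carrying Col1a1, Col3a1 or Pecam1 (a sum of 3 or more); the cause of the second was not tested. Levels near 1 corrected count per cell, above all those of Hnf4g, are limited by depth, and no value covers differences between mice.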
